A study of Mus musculus with 2 samples.

Results

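The calcium cycling genes of the sarcoplasmic reticulum described here are 10 genes chosen by symbol from the M21 release of the GENCODE mouse annotation. They are the calcium pump genes Atp2a1, Atp2a2 and Atp2a3, the pump regulators Pln and Sln, the buffer genes Casq1 and Casq2, and the release channel and junction genes Trdn, Ryr2 and Jph2. All 10 were found among 55536 annotated genes, and they hold 53 of 141862 annotated transcripts. RNA was taken from whole hearts of B6NCrl mouse embryos at 12.5 days, male and female embryos pooled. The label gives polyA RNA sequencing from total RNA primed with oligo-dT, as 2 libraries, biological replicates 1 and 2. Both libraries belong to 1 group and carry no treatment or mutation, so no conditions were compared. The libraries come from 2 biosamples that share 1 donor identifier, so differences between them may be technical. P-values of the exact binomial test used here cover counting error only, not spread between samples. Each library started from 10 ng of RNA, was cut by Nextera tagmentation and held ERCC spike-ins, which are synthetic RNAs added in known amounts.

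The sarcoplasmic reticulum is the internal calcium store of muscle cells. At each beat calcium enters through channels of the surface membrane and opens ryanodine receptors in the store, which release more calcium and start contraction. SERCA pumps return the calcium to the store, where calsequestrin binds it, and small membrane proteins such as phospholamban slow the pump. Triadin ties calsequestrin to the release channel, and junctophilin holds the store close to the surface membrane.

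Summed expected counts, which are estimated reads per gene, were 35520161 in replicate 1 and 32577548 in replicate 2. The heart label was checked against markers. All 7 cardiac muscle markers were detected, meaning that each library reached a TPM of 1 (TPM is a level scaled by transcript length), with a median of 4219 TPM. Of 10 skeletal muscle markers 3 were detected, Acta1, Mylpf and Tnnt3, and the list summed to 400.8 TPM in each library, most of it Acta1 at 376 TPM, a gene that embryonic heart also uses. Of the skeletal muscle factors, Myod1 had 17 and 9 counts, Myf5 had 2 and 2, and Myog had 33 and 52. Endothelial markers were detected in 5 of 5 cases, those of platelets in 5 of 5 and of red cells in 4 of 4. Those of smooth muscle and of leukocytes were each detected in 3 of 4 cases and those of neurons in 2 of 4. Among nuclear protein-coding genes 56.6% were detected. The 3 smooth muscle markers detected were Acta2, Cnn1 and Tagln, while Myh11 had 0.58 and 1.37 TPM. In such bulk tissue fewer cells of a type and less RNA per cell cannot be told apart.

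All 10 calcium cycling genes were detected. Among all genes 14246 were detected (25.7%), and among 22015 nuclear protein-coding genes 12455 were (56.6%). The median level of the 10 was 66.0 TPM on M21, beside 19.1 TPM for detected protein-coding genes. On the older M4 annotation the median of the 10 was 41.6 TPM. Their levels ran from 1.91 to 537 TPM, and together they took 0.249% of gene counts in replicate 1 (exact 95% interval 0.247 to 0.251) and 0.250% in replicate 2 (0.249 to 0.252), intervals that cover counting error only. In order of level they were Pln, Atp2a2, Trdn, Casq1, Casq2, Jph2, Ryr2, Sln, Atp2a3 and Atp2a1. Neighbours were called separate where the values of both libraries did not overlap and the means differed by more than 2 times the root of the summed squared SDs. By that rule all 9 neighbouring pairs were separate on M21. The order of Trdn, Ryr2 and Sln depended on the annotation, as described with the annotation releases.

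**Figure D1:**
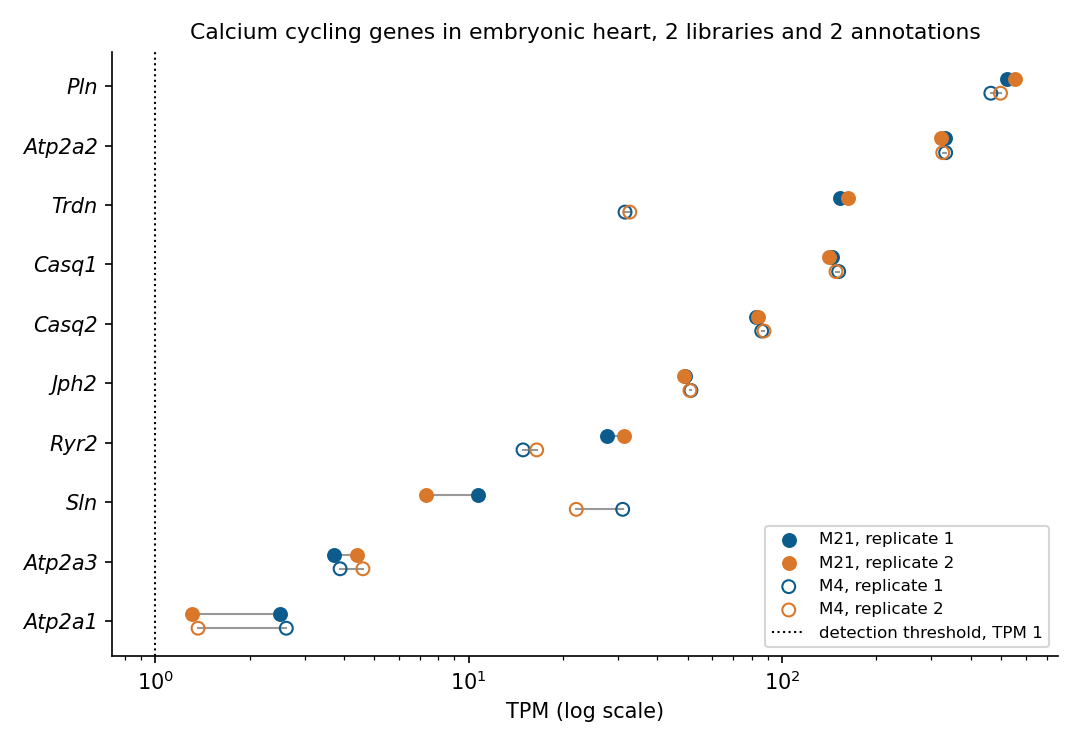
TPM on a log axis for the 10 calcium cycling genes, with replicate 1 in blue and replicate 2 in orange, filled points for the M21 tables and open points for the M4 tables; grey lines join the 2 libraries. Trdn, Ryr2 and Sln stand at clearly different levels in the 2 annotations, while the other 7 genes nearly coincide.

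Among the pumps, Atp2a2 was the predominant gene. It encodes SERCA2, the pump of heart and slow muscle, and lies on the minus strand at chr5:122453513-122502225 (mm10, as are all coordinates here). Atp2a2 had 332 and 323 TPM in replicates 1 and 2 (327 ± 6.83, SD, n = 2), from 33473 and 29652 counts, and ranked 364 of 22015 protein-coding genes. Atp2a3, which encodes the pump of platelets, endothelium and other non-muscle cells (chr11:72961169-72993044, plus strand), had 3.73 and 4.41 TPM (4.07 ± 0.481, n = 2). Atp2a1, which encodes the pump of fast skeletal muscle (chr7:126445858-126463108, minus strand), had 2.51 and 1.31 TPM (1.91 ± 0.849, n = 2). Atp2a2 therefore held 98.2% ± 0.0716 (SD, n = 2) of the TPM of the 3 pump genes, Atp2a3 1.22% ± 0.171 and Atp2a1 0.570% ± 0.242. Within a library Atp2a2 exceeded Atp2a1 by 132-fold in replicate 1 and 246-fold in replicate 2, and Atp2a3 by 89.1-fold and 73.1-fold. The coding sequences of Atp2a1 and Atp2a2 are identical at 75.2% of aligned bases, and those of Atp2a2 and Atp2a3 at 71.2%. The longest identical runs in the 3 pump pairs are 44, 44 and 53 bases. The posterior SD of the counts, the authors' measure of uncertain read assignment, was at most 2.7 counts for each pump gene.

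The heart pump is made in forms that differ at their end. The bases at which the annotated coding regions of Atp2a2-202 (SERCA2a) and Atp2a2-201 (SERCA2b) part are shown because the encoded proteins differ from here on. Lower case marks shared bases and capitals mark the bases that each transcript does not share.
Atp2a2-202 coding end: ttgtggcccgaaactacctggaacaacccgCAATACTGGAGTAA
Atp2a2-201 coding end: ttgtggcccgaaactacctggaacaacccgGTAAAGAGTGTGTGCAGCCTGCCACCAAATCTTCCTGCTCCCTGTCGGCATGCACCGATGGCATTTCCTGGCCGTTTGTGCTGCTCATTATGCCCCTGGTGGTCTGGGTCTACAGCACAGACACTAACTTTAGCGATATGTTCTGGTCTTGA
Both share 2983 coding bases, after which Atp2a2-202 has 14 bases with its stop codon and Atp2a2-201 has 152. SERCA2a is the main form of heart muscle, while SERCA2b is found in most cell types. Atp2a2-202 held 79.4% of the gene's TPM in replicate 1 and 78.5% in replicate 2 (79.0% ± 0.596, n = 2). Atp2a2-201 held 9.59% and 8.09%. Atp2a2-203, which has the same coding length as Atp2a2-201 and is annotated as a target of nonsense-mediated decay, held 10.3% and 12.7%. The 2 transcripts with the longer coding end summed to 20.4% ± 0.646, with a smaller SD than either alone (1.06 and 1.70 percentage points). On M4, where Atp2a2-203 has 3534 bases and not 5674, Atp2a2-202 held 85.3%, Atp2a2-201 14.7% and Atp2a2-203 0.01%. On M21 posterior SDs were 193 and 223 counts for Atp2a2-201 and 212 and 255 counts for Atp2a2-203.

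The small regulators Pln and Sln encode phospholamban and sarcolipin, short membrane proteins that bind and inhibit the pump. Phospholamban is typical of ventricle and slow muscle, and sarcolipin of atrium and skeletal muscle. Their whole coding sequences, start and stop codon in capitals, show how little of each transcript codes for protein.
Pln coding: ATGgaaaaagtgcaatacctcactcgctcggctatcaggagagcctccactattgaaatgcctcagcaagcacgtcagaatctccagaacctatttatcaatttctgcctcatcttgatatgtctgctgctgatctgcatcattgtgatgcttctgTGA
Sln coding: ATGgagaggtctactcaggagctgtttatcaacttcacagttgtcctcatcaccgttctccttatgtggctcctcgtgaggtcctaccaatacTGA
The Pln sequence has 159 bases of a transcript of 2334 bases (Pln-201), and the Sln sequence has 96 of 1318 (Sln-201). Pln (chr10:53337667-53345987, plus strand) had 522 and 552 TPM (537 ± 21.8, n = 2) from 24591 and 23852 counts and ranked 193 among protein-coding genes, the highest of the 10. Sln (chr9:53850164-53854560, plus strand) had 10.7 and 7.32 TPM (9.02 ± 2.40, n = 2) from 322 and 199 counts. On M21 Pln exceeded Sln by 48.7-fold in replicate 1 and 75.5-fold in replicate 2. The mean log2 ratio was 5.84 on M21 and 4.17 on the older M4 annotation, where Sln had 26.5 ± 6.34 TPM (SD, n = 2). Pln also exceeded its target Atp2a2 in TPM, by 1.57-fold and 1.71-fold. That order reversed for counts not divided by length, for which the mean log2 ratio was -0.38. Pln-201 held 80.4% ± 0.934 of the gene's TPM and Pln-205 12.9% ± 1.31. All 6 annotated Pln transcripts have a coding region of the same length. The gene Gm47644 lies on the other strand and shares 1644 exon bases with Pln. It had 907 and 879 counts, and reads of the pair cannot be told apart without strand.

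The calsequestrin genes were both expressed, and Casq1, the form named for fast skeletal muscle, stood above Casq2, the cardiac form. Casq1 (chr1:172209894-172219868, minus strand) had 144 and 142 TPM (143 ± 2.07, n = 2), and Casq2 (chr3:102086415-102146514, plus strand) had 82.5 and 83.9 TPM (83.2 ± 0.976, n = 2). The libraries did not overlap between the genes. Casq1 held 63.2% ± 0.610 of the calsequestrin TPM, and exceeded Casq2 by 1.75-fold and 1.69-fold. For counts not divided by length the mean log2 ratio was 0.22, beside 0.78 for TPM. The coding sequences are identical at 69.1% of aligned bases, with no identical run above 15 bases, and the posterior SD of both gene counts was at most 0.09. Of the 10 skeletal muscle markers, Acta1 had 376 TPM, Mylpf 14.7 and Tnnt3 6.15, and the other 7 lay between 0.045 (Myf5) and 1.32 TPM (Myog). Their part in the Casq1 level was not tested.

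The last coding bases of both genes are shown because calsequestrin ends in an acidic tail, a calcium-binding feature for which the protein is known. Capitals mark codons that begin with GA, which code for aspartate or glutamate.
Casq1 coding end: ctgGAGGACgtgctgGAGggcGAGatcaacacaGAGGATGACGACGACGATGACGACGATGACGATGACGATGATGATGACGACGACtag
Casq2 coding end: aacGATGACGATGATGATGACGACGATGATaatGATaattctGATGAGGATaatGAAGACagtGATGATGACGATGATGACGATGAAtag
Of the last 29 codons before the stop, 22 begin with GA in Casq1 and 23 in Casq2, beside 28.4% and 26.7% of codons over the whole coding regions. Casq1-201 held 90.0% ± 3.37 of the Casq1 TPM and the retained-intron transcript Casq1-202 held 9.45% ± 3.23. Casq2-201 held 99.8% ± 0.283 of the Casq2 TPM. Casq2-205, which has 12 exons where Casq2-201 has 11, was given 0 TPM in both libraries, with a posterior SD of 98.9 and 50.4 counts.

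Triadin, encoded by Trdn (chr10:33080554-33476709, plus strand), had 154 and 163 TPM on M21 (158 ± 6.30, n = 2) from 4203 and 3948 counts. Its transcripts end at different exons, and the shorter ones carry most of the reads. The coding ends of 3 transcripts are shown, with bases shared with the long Trdn-201 in lower case and bases after the split in capitals. Trdn-206 is annotated without the end of its coding region, so its last base is not a stop.
Trdn-202 coding end: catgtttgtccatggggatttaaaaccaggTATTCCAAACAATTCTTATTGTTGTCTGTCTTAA
Trdn-206 coding end: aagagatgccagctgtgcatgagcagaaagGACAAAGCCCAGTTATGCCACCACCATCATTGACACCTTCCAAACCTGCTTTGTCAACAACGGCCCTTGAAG
Trdn-208 coding end: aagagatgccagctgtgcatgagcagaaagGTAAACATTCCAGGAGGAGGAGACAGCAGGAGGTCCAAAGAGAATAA
Trdn-202 parts from Trdn-201 after 848 coding bases, and Trdn-206 and Trdn-208 part after 787. Trdn-206 held 53.6% of the gene's TPM in replicate 1 and 53.5% in replicate 2. Trdn-202 held 20.9% and 17.7%. Trdn-204, a retained-intron model of 1 exon, held 8.79% and 9.18%, and Trdn-203, whose coding region lacks its end, held 6.74% and 10.4%. Trdn-201, with 38 exons, held 2.32% and 2.66%, and Trdn-208 2.51% and 2.30%. The coding bases of Trdn-206 lie wholly within those of Trdn-207, whose coding region is complete and which held 0.469% and 0%. Transcripts with both coding ends annotated summed to 24.4% ± 2.50 of the TPM.

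Ryr2 encodes the ryanodine receptor of heart (chr13:11553102-12106945, minus strand). Ryr2 had 27.6 and 31.2 TPM on M21 (29.4 ± 2.55, n = 2) from 6263 and 6280 counts. The skeletal muscle receptor Ryr1 had 0.11 and 0.19 TPM, and Ryr3, which is found at low levels in many tissues, had 3.40 and 3.64 TPM. Ryr2 held 88.9% ± 0.246 of the TPM of these 3 genes on M21 and 81.1% ± 0.783 on M4. When the inositol trisphosphate receptors, the other family of release channels, were added, Ryr2 held 35.9% ± 0.505 and Itpr2 34.7% ± 1.96 on M21. Ryr2 was 1.09-fold Itpr2 in replicate 1 and 0.985-fold in replicate 2, so the order of this pair differed between the libraries. The full-length Ryr2-201, with 105 exons and 14901 coding bases including the stop, took 84.5% of the gene's counts but 46.0% ± 0.805 of its TPM. The 9 retained-intron transcripts took 6.08% of the counts and 36.1% ± 0.944 of the TPM, and Ryr2-203 took 9.38% of the counts and 17.7% ± 0.218 of the TPM. Ryr2-201 and Ryr2-202 have coding regions of the same length, and the posterior SD of Ryr2-201 was 519 and 468 counts.

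Jph2 encodes junctophilin 2, the heart form of the protein that bridges surface membrane and store (chr2:163336242-163397993, minus strand). Jph2 had 49.1 and 48.7 TPM (48.9 ± 0.276, n = 2) from 4976 and 4463 counts, the smallest SD relative to its mean of the 10 genes. Jph1, the skeletal muscle form, had 0.98 and 0.84 TPM, Jph3 0.24 and 0.21, and Jph4 0.07 and 0.14. Jph2 held 97.5% ± 0.124 of the TPM of the family. Jph2-201 held 97.9% ± 1.78 of the Jph2 TPM and Jph2-202, with a coding region of the same length, the rest.

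In the weakly expressed pump genes the transcript split was less stable. Atp2a3-201 held 89.0% of the gene's TPM in replicate 1 and 51.9% in replicate 2, with posterior SDs of 50.9 and 57.3 counts on 367 and 229 counts. Atp2a3-203 held 0% and 26.8%. Atp2a1-202, which lacks the start of its coding region, held 52.0% and 38.9% of the Atp2a1 TPM from 18.8 and 6.65 counts. The gene Rabep2 lies on the strand opposite to Atp2a1, shares 763 exon bases with it and had 896 and 827 counts. Reads in the shared bases cannot be told apart without strand, which also bears on the Atp2a1 level.

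**Figure D2:**
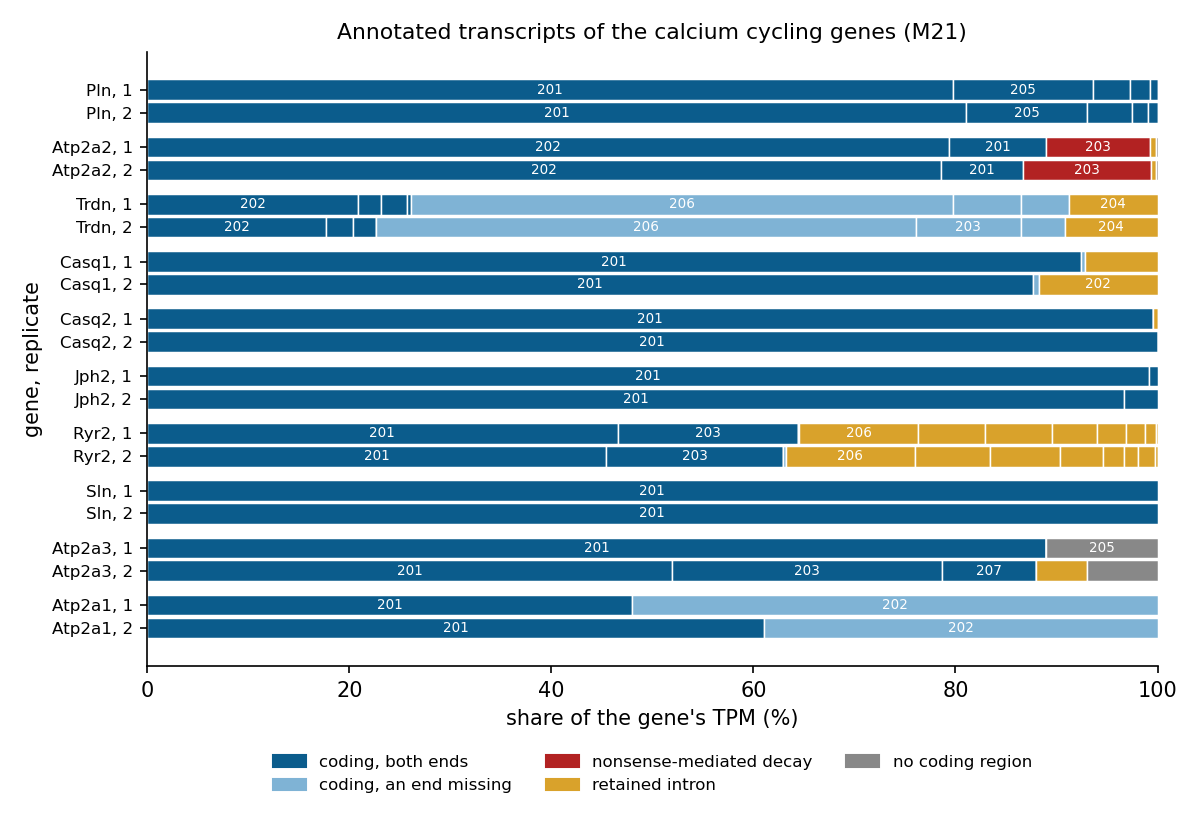
Share of each gene's TPM (percent) held by its annotated M21 transcripts, one bar per gene and library, coloured by annotation class; transcript numbers are printed where a share is above 7.5%. Trdn and Ryr2 hold large shares in transcripts without a complete coding region, while Casq2, Jph2 and Sln are nearly a single transcript, and Atp2a3 is split differently in the 2 libraries.

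The same reads were also quantified on the older M4 annotation, which allowed each level to be compared between annotations. Of 13486 genes detected on both, 7.18% differed by an absolute log2 ratio of at least 0.5 and 2.48% by at least 1, with a median of -0.06. Of the 10 calcium cycling genes 3 passed the first limit and 2 the second. Trdn had 31.6 and 32.7 TPM on M4, and was 4.92-fold higher on M21. Its log2 ratio of 2.30 divides into 0.35 from a higher expected count, 2.01 from a shorter effective length and -0.06 from the scaling of the whole table. M4 has the single transcript Trdn-201, with an effective length of 4415 bases, beside 1109 and 1089 for the gene on M21. Ryr2 had 14.9 and 16.5 TPM on M4, with a log2 ratio of 0.90 of which 0.88 came from length. Sln had 31.0 and 22.1 TPM on M4, and its log2 ratio of -1.56 came from length by -1.55, since Sln-201 has 515 bases on M4 and 1318 on M21. The other 7 genes had log2 ratios between -0.07 and 0.16.

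The order of the 10 genes changed accordingly. On M4 it was Pln, Atp2a2, Casq1, Casq2, Jph2, Trdn, Sln, Ryr2, Atp2a3 and Atp2a1, and the pairs Trdn with Sln and Sln with Ryr2 were not separate by the rule above. The log2 ratio of Trdn over Casq2 was 0.92 on M21 and -1.42 on M4. When M21 transcripts with both coding ends annotated were summed, Trdn had 40.2 and 36.8 TPM (38.5 ± 2.41, n = 2) and Ryr2 17.8 and 19.7 TPM (18.7 ± 1.33, n = 2). In that count Trdn ranked sixth of the 10, below Casq2 and Jph2, and its log2 ratio to Casq2 was -1.10. That rank depends on leaving out Trdn-206, with 82.3 and 86.9 TPM, whose coding region is annotated without its end. Of the release channels Ryr2 held 25.2% and Itpr2 46.4% on M4. Casq1 over Casq2 (0.78 and 0.79 on the log2 scale) and the share of Atp2a2 among pumps (98.2% and 98.1%) were nearly equal on both annotations.

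**Figure D3:**
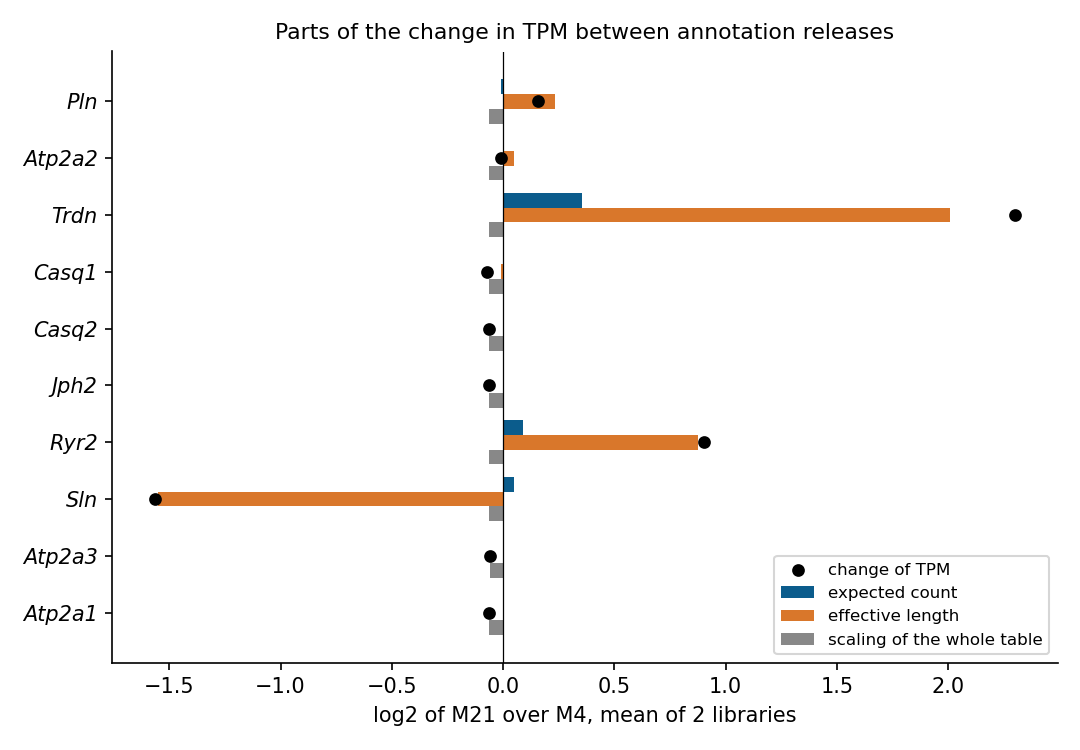
Mean log2 of the M21 over the M4 level of each gene (black points), with bars for the parts that come from expected count, effective length and the scaling of the whole table. For Trdn, Ryr2 and Sln the length bar makes up most of the difference.

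The libraries were compared gene by gene with an exact binomial test on counts, two-sided, which covers counting error and compares these 2 libraries, not conditions. Of 17970 genes whose counts summed to 20 or more, 1.57% were called (0.863% lower and 0.707% higher in replicate 2), which required a Benjamini-Hochberg adjusted p under 0.05 and a change of 1 or more on the log2 scale. None of the 10 calcium cycling genes was called, although 6 had an unadjusted p under 0.05, as did 22.5% of all genes tested. None was called by edgeR's exact test with a common dispersion, which called 0.874% of genes. That dispersion was estimated from these same 2 libraries taken as replicates, so the differences under test enter its error term. The edgeR test therefore leans toward no call and is no independent check. Without the fold limit 10.0% of genes passed the exact binomial test (5.73% lower and 4.28% higher in replicate 2), and 6 of the 10 did, 4 lower and 2 higher in replicate 2. At an adjusted p under 0.05 alone, edgeR's test passed 1.34% of genes and Sln among the 10 (adjusted p = 0.0302). The median log2 ratio of the 10 was -0.02, beside -0.01 for all genes tested. The median absolute log2 ratio was 0.0833 for the 10 and 0.0991 for all genes tested. The exact binomial test passes smaller changes where counts are higher, so the number passing without a fold limit depends on read depth.

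The lowest ratios were those of Atp2a1 and Sln, which also have few reads. Scaled counts of Atp2a1 were 114 and 69.8, a log2 ratio of -0.71 (exact 95% interval -1.17 to -0.27, adjusted p = 0.0175 by the exact binomial test). Those of Sln were 310 and 207, a log2 ratio of -0.58 (-0.84 to -0.32, adjusted p = 0.000316 by the same exact test). Among 2644 genes with 150 to 600 summed counts, a range that holds both, 8.59% had an absolute log2 ratio of at least 0.5. The skeletal muscle marker Tnnt3 had 154 and 97 counts, a log2 ratio of -0.55, while Tnnc2 had 4 and 17 counts and was called higher, and 8 tested skeletal markers had a median of 0.06. The part of skeletal muscle cells in these values was not tested.

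The abundant genes differed by little. Ryr2 had a log2 ratio of 0.12 (0.07 to 0.17), Pln 0.07 (0.04 to 0.10), Atp2a2 -0.06 (-0.08 to -0.04) and Casq1 -0.10 (-0.15 to -0.04), each with an adjusted p under 0.05 by the exact binomial test and an edgeR adjusted p of at least 0.986. Casq2, Trdn, Jph2 and Atp2a3 did not pass, with log2 ratios of -0.0026, 0.02, -0.04 and 0.18. For Atp2a3 the interval ran from -0.03 to 0.39. Atp2a3 is known in platelets and endothelium. Of 5 platelet and megakaryocyte markers, 3 were higher in replicate 2 at an adjusted p under 0.05 by the exact binomial test. Among all genes tested 4.28% were. The 5 markers had a median of 0.35 and summed levels of 91.3 and 117 TPM. Of 5 endothelial markers 1 was higher by the same test and none lower, with a list median of 0.07 and summed levels of 324 and 347 TPM. The part of either cell type in the Atp2a3 level was not tested.

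**Figure D4:**
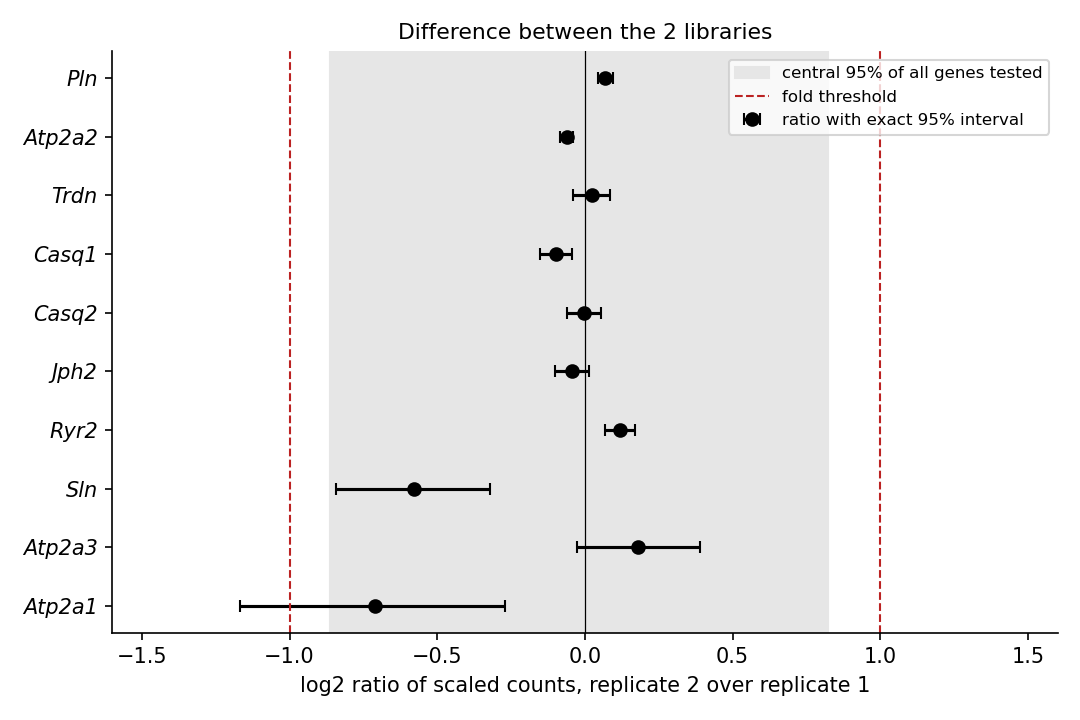
Log2 ratio of scaled counts, replicate 2 over replicate 1, for each gene with its exact 95% interval; the grey band holds the central 95% of all genes tested and dashed lines mark the fold limit. All 10 points lie inside the band, and the intervals of Atp2a1 and Sln are the widest beside that of Atp2a3.

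Other genes of calcium handling were taken from a list of 55 in 8 role groups. Of these 44 were detected, beside 56.6% of nuclear protein-coding genes, a share that also applies to the counts by role group below. The median was 21.1 TPM over all 55, with undetected genes included. None of the 51 that could be tested was called between the libraries by the exact binomial test or by edgeR's exact test, and 11 had an unadjusted p under 0.05 by the former, beside 22.5% of all genes. At an adjusted p under 0.05 alone by the exact binomial test 1 was lower and 7 were higher in replicate 2, beside 5.73% and 4.28% of all genes. These numbers too depend on read depth. The one lower was Calm3, a calmodulin gene (log2 ratio -0.23). Slc8a1, which encodes the sodium-calcium exchanger that removes calcium through the surface membrane, had 78.6 and 89.3 TPM and a log2 ratio of 0.16. Cacna1c, which encodes the L-type channel through which calcium enters, had 45.5 and 49.4 TPM and a log2 ratio of 0.20. Both were among the 7, and both libraries showed Atp2a2 above Slc8a1, by 4.22-fold and 3.61-fold.

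Regulators of the pump beyond Pln and Sln were unevenly expressed, with 3 of 7 detected. S100a1, a calcium-binding protein that stimulates the pump, had 116 and 113 TPM. Arln, which encodes another-regulin, a phospholamban-like inhibitor found in many tissues, had 108 TPM in both libraries. Hax1, which encodes a protein that binds phospholamban, had 62.2 and 66.5 TPM. The muscle micropeptide genes were low: Mrln, which encodes the skeletal muscle inhibitor myoregulin, had 3 and 5 counts, and Strit1, which encodes the pump activator DWORF, had 0 counts in both libraries, which allows up to 3 counts in each.

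Partners of the release channel were detected in 18 of 18 cases, with a median of 51.5 TPM. Calm2, a calmodulin gene, had 494 TPM. Fkbp1a and its relative Fkbp1b, whose products both bind release channels, had 602 and 6.88 TPM. The kinase gene Camk2d, the main heart form of a calmodulin-dependent kinase, had 102 TPM, and Sri, which encodes sorcin, had 191 TPM. Luminal calcium buffers and junctional proteins were detected in 9 of 9 cases. Calr, which encodes calreticulin, the buffer of the general endoplasmic reticulum, had 585 and 597 TPM, above Casq1 and Casq2 together (summed 227 and 225 TPM). Calu had 374 TPM, Srl 179, Asph (which includes junctin) 97.7, Tmem38a 41.8 and Hrc 20.5 TPM. Store-operated entry genes were detected in 5 of 5 cases at 2.39 to 18.0 TPM. The 3 other junctophilin genes were all below the detection limit.

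**Figure D5:**
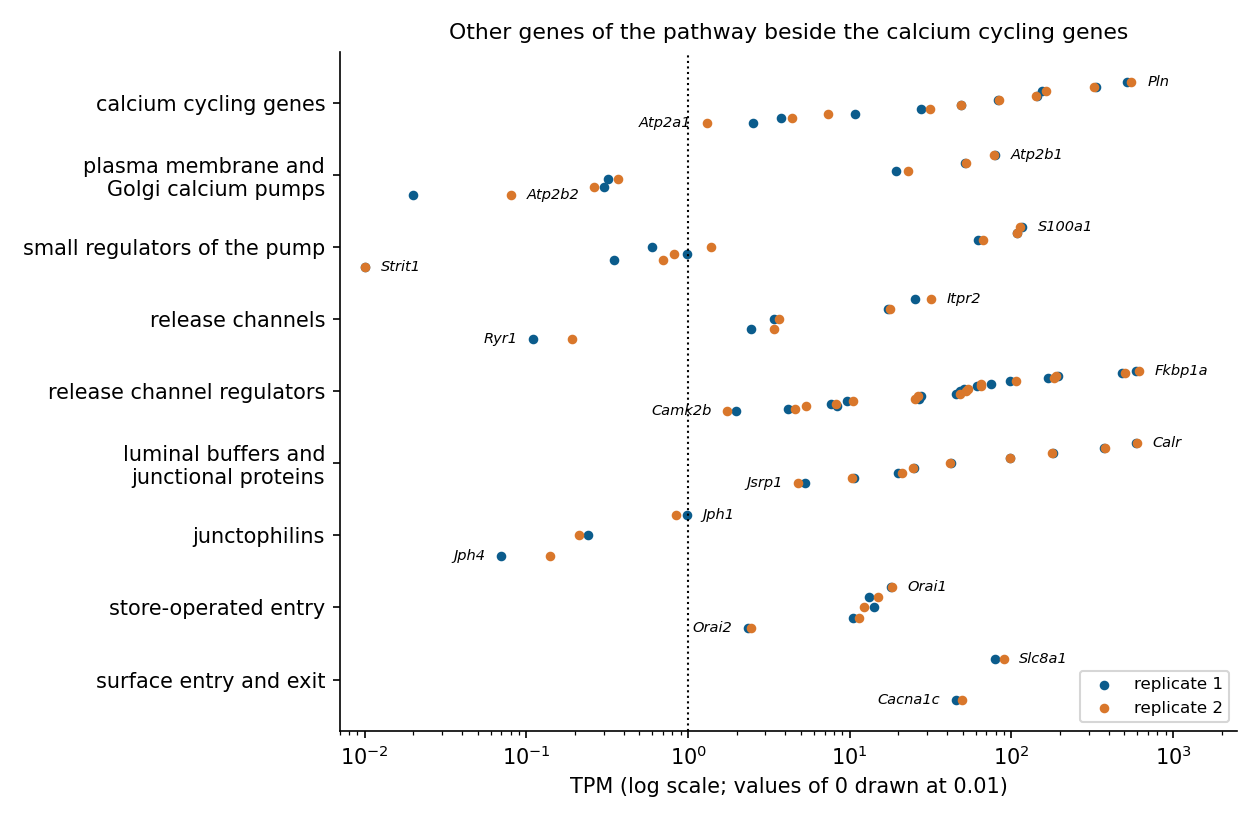
TPM on a log axis of the calcium cycling genes and of further pathway genes in 8 role groups, replicate 1 in blue and replicate 2 in orange, with the lowest and highest gene plotted in each group named; the dotted line is a TPM of 1. The junctophilins other than Jph2 all lie left of the line, and the plotted release channel regulators, luminal buffers and junctional proteins lie right of it.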

How the data were processed

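Per the text deposited with the tables, the authors quantified genes and transcripts of each library on GENCODE M21 and M4 (mm10). Expected counts, as deposited, estimate reads per feature and were rounded before testing. The deposited TPM and FPKM values are scaled by effective length and total, and the authors' tables also give posterior mean TPM, posterior SD of counts (a score of assignment uncertainty) and the percent of a gene held by a transcript. The sources used here name no aligner, counter, version or strand setting. M21 was used throughout, with M4 as the alternative.

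Levels are means ± SD over both libraries, and a gene was detected where both reached a TPM of 1. The 17 pairs of related genes are described by log2(TPM + 0.5) without a test. Counts scaled by TMM (edgeR 4.0.16, R 4.3.3) were compared with an exact conditional binomial test (scipy 1.17.1), two-sided by point probability, at a summed count of at least 20. The design did not fix how both tails are formed. The form with the smaller tail doubled was also run, after the first result was seen, and is given as an alternative. Intervals are exact at 95% and cover counting error only, since no molecular identifiers were used.

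The members and lists were chosen with earlier results of these data known. The pairs, the window of 150 to 600 counts, the sequences shown and the sum over transcripts with both coding ends were chosen after the levels had been seen. Genes named are the 10 members, genes of the pathway lists, markers, and genes overlapping a member. A gene of the pathway lists enters the counts and medians but is not reported here by name or in the plot. Sequences are from the GENCODE M21 transcripts. A planned comparison of protein sequences was not run, and coding sequences were compared in its place (Biopython 1.88, global alignment). The exact test was also run on simulated Poisson counts, which carry counting error only. That run therefore gives no check against spread between libraries or uncertain read assignment.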

Additional observations from a re-analysis of the deposited data

How the results depend on the processing

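All 10 genes stayed detected on M4 and at a TPM of 0.5, and 9 at a TPM of 2, where Atp2a1 was lost, and the detected numbers of members and pathway genes stayed within 1.5 times under each limit tried. The number of genes called between the libraries, 282, was 260 with the smaller tail doubled (added after seeing the data), 60 at a summed count of at least 100, 157 by edgeR's exact test and 1799 without the fold limit, and the number of calcium cycling genes called was 0 except without the fold limit, where it was 6. The log2 ratio between libraries of Casq2 was -0.0026, and 0.0093 with total count scaling and 0.0011 on M4. For counts not divided by length, mean log2 ratios were 8.45 (Atp2a2 over Atp2a1), 6.58 (Pln over Sln), -0.38 (Pln over Atp2a2), 0.22 (Casq1 over Casq2), -0.23 (Trdn over Casq2), -0.62 (Trdn over Ryr2), -0.39 (Casq2 over Ryr2), 7.43 (Ryr2 over Ryr1), 5.55 (Jph2 over Jph1) and -0.41 (Jph2 over Ryr2), so 5 of these orders reversed. On M4 they were 4.17 (Pln over Sln), 0.55 (Pln over Atp2a2), -1.42 (Trdn over Casq2), 1.01 (Trdn over Ryr2), 4.74 (Ryr2 over Ryr1), -0.86 (Ryr2 over Itpr2) and 1.67 (Jph2 over Ryr2). With complete coding transcripts they were 7.77 (Atp2a2 over Atp2a1), 0.63 (Casq1 over Casq2), -1.10 (Trdn over Casq2), 1.02 (Trdn over Ryr2) and 1.36 (Jph2 over Ryr2). Ryr2 over Itpr2 ranged from -0.0212 without replicate 1 to 0.1203 without replicate 2. With a pseudocount of 0.1 and 1, Ryr2 over Ryr1 was 6.90 and 4.72 and Jph2 over Jph1 5.60 and 4.71. Atp2a2-202 held 74.8% of counts and 85.3% of TPM on M4, and Trdn-206 45.0% of counts and 52.8% of posterior mean TPM. The causes were not tested beyond the parts given with the annotations. The transcript shares of Atp2a1 and Atp2a3 rest on few reads, and Atp2a3-201 also had posterior SDs of 50.9 and 57.3 counts. The parts of depth and of uncertain read assignment in these shares were not tested. Sln also has few reads, and its level depended on the annotation, with 9.02 TPM on M21 and 26.5 TPM on M4. No paired analysis was possible because both libraries belong to 1 group.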
